A study of Mus musculus with 16 samples.

Results

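GFP- cells sorted from AKVPSL tumours were compared with GFP- cells sorted from AKVPL tumours, across every gene counted in the 8 GFP- libraries. These 8 libraries, 4 per genotype, are all the GFP- libraries among the 16 mouse RNA-seq libraries of the study; they were chosen by the sort and genotype in the sample titles, with no use of expression values. The study profiled Lgr5-positive and Lgr5-negative cells of intestinal tumours, so GFP- stands for the Lgr5-negative sort. The titles name the colon, whereas the tissue field gives the small intestine for every library but AKVPSL GFP- replicate 1, which is given as colon. The groups used here are AKVPL GFP-, AKVPSL GFP- and, for 1 comparison, AKVPL GFP+ and AKVPSL GFP+. The genotype codes are not spelled out in the labels. In mouse models of this kind such letters usually stand for alleles that include Apc, a villin-driven Cre recombinase, Trp53, Smad4 and an Lgr5 reporter; on that reading both genotypes share every element except S, the loss of Smad4. Strain, age, treatment, the number of tumour lines behind each genotype, any gate other than GFP and whether the replicates are separate animals are not stated in the labels; p-values here therefore reflect library-to-library spread, which may be technical.

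SMAD4 is the shared partner of the receptor-activated SMAD proteins, and carries TGF-beta and BMP signals from the receptors to the genes they control. In the intestinal epithelium these signals restrain division, favour differentiation and shape what the tumour cells and their stroma secrete. LGR5 marks the crypt base stem cell, and the cells that have lost it in a tumour are normally the more differentiated progeny together with whatever non-epithelial cells a sort lets through.

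The libraries held 10881115 to 31109999 counts assigned to genes. Lgr5, which the reporter follows, averaged 67.2 ± 8.67 CPM in AKVPL GFP- and 68.2 ± 18.2 CPM in AKVPSL GFP- cells (SD, n = 4 each), against 288 and 266.9 CPM in the GFP+ cells. GFP+ levels were scaled over all 16 libraries, and GFP- levels over the 8 GFP- libraries. The first principal component of the GFP- libraries took 87.7% of the variance and separated the genotypes, and the second took 4.7% and set AKVPSL replicates 1 and 2 apart from AKVPSL replicates 3 and 4. Mitochondrial transcripts took 2.37% to 6.48% of the counts. Levels are given in CPM, the usual unit of counts relative to library size, here scaled by the trimmed mean of M values (TMM), in the order of replicates 1 to 4. Differences are log2(AKVPSL / AKVPL), negative when AKVPSL was lower, each with its standard error (SE) from edgeR's quasi-likelihood fit and a p-value adjusted over all genes tested by the Benjamini-Hochberg method; a gene is called when that value is under 0.05.

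Most genes, 58.9%, differed between the genotypes. Of 17237 genes tested, 5030 were higher in AKVPSL (29.2%) and 5131 were lower (29.8%), and the median difference over all genes was -0.008. Differences of at least 2-fold were more often falls, with 10.2% of genes higher and 18.1% lower by that much. All 4 AKVPSL libraries stood above all 4 AKVPL libraries for 27.1% of the genes and below them for 26.9%. Counts of list members below are read against these shares. When the libraries were instead scaled on epithelial identity genes, the median of all genes moved to -0.298 and the calls to 3122 higher and 7220 lower, so that the share of calls that were higher fell from 49.5% to 30.19%; with library totals alone that share was 43.81%. Small differences therefore depend on the scaling, and such cases are named.

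**Figure D1:**
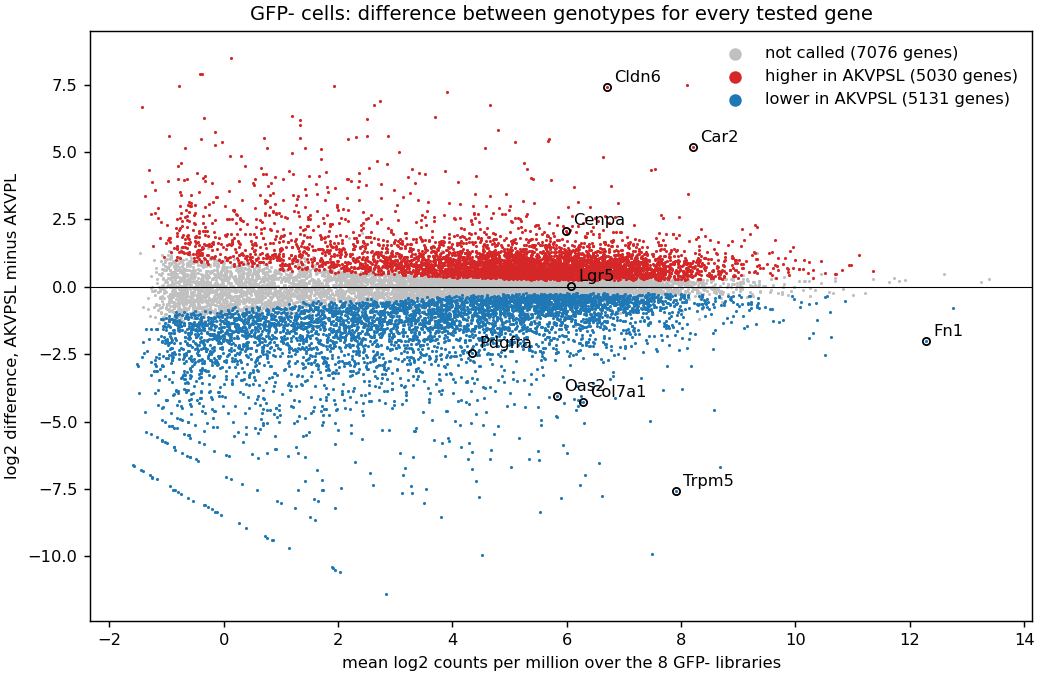
Log2 difference between the genotypes (AKVPSL minus AKVPL, vertical axis) against mean log2 CPM over the 8 GFP- libraries (horizontal axis), 1 point per gene, coloured by the call. The 5030 higher and 5131 lower genes lie at every expression level; Trpm5 (-7.57), Col7a1 (-4.28) and Cldn6 (7.40) are among the far points, and Lgr5 (0.02) lies at 0.

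The 4 genes chosen to mark the comparison stand for tuft cells, dividing cells, matrix and fibroblasts, and the groups did not overlap for any of them. Trpm5 (gene 56843, chr7:143071529-143094642, RefSeq annotation of GRCm38.p6), the cation channel of tuft cell taste signalling, had 425, 423, 539 and 528 CPM in AKVPL and 2.38, 2.94, 2.37 and 2.38 CPM in AKVPSL, a difference of -7.57 ± 0.17 (SE, adjusted p = 1.07e-11). Cenpa (gene 12615, chr5:30666877-30674837), the histone H3 variant of the centromere, had 23.8, 29, 24.4 and 18.5 CPM in AKVPL and 114, 96.3, 105 and 91.9 CPM in AKVPSL (2.08 ± 0.14 (SE, adjusted p = 1.18e-07)). The tuft cell channel was close to absent from AKVPSL, and the centromere gene was higher in each AKVPSL library than in any AKVPL library. Fn1 (gene 14268, chr1:71585473-71653280), which encodes fibronectin, had 8848, 7781, 7239 and 7968 CPM in AKVPL and 1868, 1531, 1810 and 2631 CPM in AKVPSL (-2.02 ± 0.17 (SE, adjusted p = 9.66e-07)). Pdgfra (gene 18595, chr5:75151322-75198206), a growth factor receptor of fibroblasts, had 38.3, 28, 29.6 and 42.3 CPM in AKVPL and 5.59, 2.56, 6.89 and 9.75 CPM in AKVPSL (-2.47 ± 0.33 (SE, adjusted p = 0.00012)).

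Among the genes the genotype letters are read to stand for, Smad4 was not lower in AKVPSL. Smad4 had 129, 139, 136 and 164 CPM in AKVPL and 169.9, 152, 191 and 210.4 CPM in AKVPSL (0.35 ± 0.12 (SE, adjusted p = 0.0281)). The groups overlapped, and the Smad4 call was lost under 7 of the alternatives, with a difference of 0.05 under epithelial scaling. In GFP+ cells, fitted apart, Smad4 was higher too (0.71 ± 0.08 (SE, adjusted p = 1.74e-05)). The Smad4 count covers the whole gene and the deleted part is not given in the labels, so it neither shows nor excludes a deletion. Smad4 and Apc lie on chromosome 18, where 367 genes with a mean log2 CPM of 1 or more had a median difference of 0.50 in GFP- cells. The values for Apc (0.34 ± 0.18 (SE, adjusted p = 0.127)), Trp53 (-0.29 ± 0.20 (SE, adjusted p = 0.235)), Vil1 (0.06 ± 0.13 (SE, adjusted p = 0.725)) and Lgr5 (0.02 ± 0.17 (SE, adjusted p = 0.921)) did not pass the threshold; Apc passed with the replicate block and without AKVPL replicate 4 (0.50) or AKVPSL replicate 3 (0.49), and Trp53 passed under epithelial scaling (-0.57).

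Epithelial identity genes were present at high levels in every library, summing to 10669 to 13010 CPM in AKVPL and 13583 to 14263 CPM in AKVPSL. Of 19 tested, 9 were higher in AKVPSL and 2 lower, with a median of 0.29. Under epithelial scaling 4 were higher, 4 lower and the median was -0.01. That scaling is computed from this same list, so a median near 0 was set in advance. Cdx2, the transcription factor of intestinal identity, had 1.2, 3.98, 1.73 and 1.48 CPM in AKVPL and 34.8, 27, 31.1 and 33.7 CPM in AKVPSL (3.88 ± 0.33 (SE, adjusted p = 2.25e-06)). Every AKVPSL library was above every AKVPL library. The intestinal cadherin Cdh17 (69.7 ± 9.25 against 199 ± 45.5 CPM, SD, n = 4 each, AKVPL first; 1.51 ± 0.16 (SE, adjusted p = 6.23e-06)) and the tight junction protein Cldn3 (223 ± 8.35 against 723 ± 138 CPM; 1.70 ± 0.14 (SE, adjusted p = 6.22e-07)) rose with it. The adhesion molecule Epcam rose by less (0.47 ± 0.12 (SE, adjusted p = 0.00381)), and was not called under epithelial scaling (0.18), which this list sets. The members that fell were Elf3, an epithelial ETS factor (-0.76 ± 0.16 (SE, adjusted p = 0.00125)), and the junction protein Ocln (-0.34 ± 0.11 (SE, adjusted p = 0.0175)); the Ocln call was lost in the fit of all 16 libraries and without AKVPL replicate 2, AKVPL replicate 3 or AKVPSL replicate 3.

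Markers of fibroblasts and of smooth muscle and pericytes were lower in the AKVPSL libraries. In bulk libraries, fewer cells of a type and less RNA per cell cannot be told apart. Fibroblast markers summed to 4574 to 9519 CPM in AKVPL and 1374 to 2812 CPM in AKVPSL, and 17 of 20 were lower with none higher (median -1.26). Col1a1, a chain of fibrillar collagen, had 2558, 2437, 3547 and 1327 CPM in AKVPL and 709.6, 432, 672 and 872 CPM in AKVPSL (-1.88 ± 0.30 (SE, adjusted p = 0.00034)). In AKVPL, Col1a1 averaged 237 CPM among the GFP+ and 2467 CPM among the GFP- libraries. Pdgfra averaged 28.3 and 34.6 CPM there, so it did not follow Col1a1 across the sorts. Smooth muscle and pericyte markers summed to 521 to 952 CPM in AKVPL and 233 to 282 CPM in AKVPSL, with 13 of 14 lower. Their farthest member was Myl9, a light chain of myosin, at 144, 125, 163 and 143 CPM in AKVPL and 7.14, 6.71, 8.99 and 7.05 CPM in AKVPSL (-4.26 ± 0.14 (SE, adjusted p = 2.36e-10)); the actin Acta2 moved less (-1.22 ± 0.29 (SE, adjusted p = 0.00495)). In AKVPL, Myl9 was as high in the GFP+ cells (a mean of 141 CPM, scaled over all 16 libraries) as in the GFP- cells (144 CPM), whereas Acta2 averaged 14.95 CPM among the GFP+ and 171 CPM among the GFP- libraries, so Myl9 did not follow Acta2 across the sorts. The fibroblast transcription factor Twist1 had a difference of 0.09 ± 0.26 (SE, adjusted p = 0.788).

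Endothelial markers overlapped between the genotypes, with sums of 614 to 1098 CPM in AKVPL and 278 to 711 CPM in AKVPSL. Of 16, 3 were lower and 1 higher, below the shares over all genes (29.8% and 29.2%). That count hung on single libraries: 7 were lower without AKVPSL replicate 2, 6 without AKVPSL replicate 1, and 1 without AKVPL replicate 1, AKVPL replicate 3 or AKVPSL replicate 4; epithelial scaling gave 8 and the replicate block 9. Cdh5, the cadherin of endothelial junctions, had 149.8, 78.1, 99.2 and 90.6 CPM in AKVPL and 57.7, 70, 9.94 and 13.3 CPM in AKVPSL, so that AKVPSL replicates 3 and 4 lay far below replicates 1 and 2. Its difference was not called (-1.47 ± 0.62 (SE, adjusted p = 0.0711)), although it passed under 8 alternatives, with values of -1.12 to -1.91. The endothelial co-receptor Eng was lower (-1.45 ± 0.40 (SE, adjusted p = 0.0136)). The VEGF receptor Flt1 was higher (0.57 ± 0.13 (SE, adjusted p = 0.00286)), but not under epithelial scaling (0.27). In GFP+ cells Flt1 averaged 54.35 CPM in AKVPL and 108.3 CPM in AKVPSL, whereas Cdh5 averaged 31.1 and 5.03 CPM.

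Leukocyte markers were lower as well, but unevenly across cell types, and macrophage markers were not lower more often than all genes. Pan-leukocyte markers summed to 1286 to 1901 CPM in AKVPL and 341 to 1141 CPM in AKVPSL, and 9 of 12 were lower (median -1.28), or 5 without AKVPL replicate 2, AKVPL replicate 3 or AKVPSL replicate 4. Ptprc, the common leukocyte antigen CD45, had 91.7, 106, 102 and 93.4 CPM in AKVPL and 15.2, 15.4, 48.2 and 31.5 CPM in AKVPSL (-1.84 ± 0.37 (SE, adjusted p = 0.00267)); AKVPSL replicates 3 and 4 were the higher ones. Macrophage markers ranged from 3100 to 4979 CPM in AKVPL and from 817 to 4380 CPM in AKVPSL. Of 18, 4 were lower, below the share over all genes (29.8%). Without AKVPSL replicate 3, 9 were lower, and 1 or 2 without any other library. C1qa, a complement subunit of tissue macrophages, had 245, 362, 360.2 and 213 CPM in AKVPL and 90.8, 65.7, 727 and 280.1 CPM in AKVPSL (-0.02 ± 0.70 (SE, adjusted p = 0.981)): the highest library of all was AKVPSL replicate 3. The macrophage growth factor receptor Csf1r was lower (-1.51 ± 0.47 (SE, adjusted p = 0.022)), a call lost without AKVPL replicate 2 (-1.46) or AKVPL replicate 3 (-1.44) and without the low-count filter (-1.50).

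Dendritic cell and MHC class II genes summed to 2539 to 6386 CPM in AKVPL and 629 to 1250 CPM in AKVPSL, and 14 of 18 were lower (median -2.05). Among them Cd74, the class II invariant chain, differed by -2.51 ± 0.37 (SE, adjusted p = 0.000343). The integrin Itgax (CD11c) had 191, 214, 238 and 147 CPM in AKVPL and 14.8, 15.8, 25.2 and 18.4 CPM in AKVPSL (-3.42 ± 0.20 (SE, adjusted p = 6.65e-08)). Mast cell markers were 12 of 13 lower, with sums of 529 to 1027 CPM in AKVPL and 43.5 to 212 CPM in AKVPSL. The mast cell proteases Mcpt1 (-3.42 ± 0.87 (SE, adjusted p = 0.00947)) and Cpa3 (-2.44 ± 0.59 (SE, adjusted p = 0.00711)) both fell, and again AKVPSL replicates 3 and 4 were above replicates 1 and 2. Kit, the receptor of stem cell factor, was held within a narrow range in each genotype, at 112, 105, 119 and 135 CPM in AKVPL and 6.15, 5.74, 5.37 and 6.2 CPM in AKVPSL (-4.32 ± 0.13 (SE, adjusted p = 8.69e-11)). In AKVPL GFP+ cells Kit averaged 65.1 CPM, whereas Mcpt1 and Cpa3 averaged 2.82 and 1.30 CPM, so Kit did not follow the proteases across the sorts.

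Neutrophil markers were 7 of 10 lower (3 without AKVPL replicate 2 or AKVPSL replicate 4, and 4 without AKVPL replicate 4 or AKVPSL replicate 2), with sums of 314 to 512 CPM in AKVPL and 63.8 to 200.05 CPM in AKVPSL. T and NK cell markers were low throughout, with overlapping sums of 35.5 to 48.4 CPM in AKVPL and 33.4 to 50.9 CPM in AKVPSL; 6 of 10 were lower and 1 higher, and Cd3g and Cd8b1 were at 0 in all 8 libraries. Gzma, a granule protease of cytotoxic lymphocytes, was counted 80 times in AKVPL and never in AKVPSL, which is at least 30.4-fold lower against a floor of 3 counts over the group. The kinase Zap70 moved the other way (1.03 ± 0.16 (SE, adjusted p = 0.000144)). Its levels were alike in GFP+ cells, with means of 8.19 CPM in AKVPL and 18.9 CPM in AKVPSL. The part of these stromal and leukocyte markers in the results that follow was not tested, except where a value is given. Of the glia and neuron markers 5 of 10 were tested, with 3 lower and 1 higher, and of the B and plasma cell markers 3 of 10, with 1 lower and none higher.

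**Figure D2:**
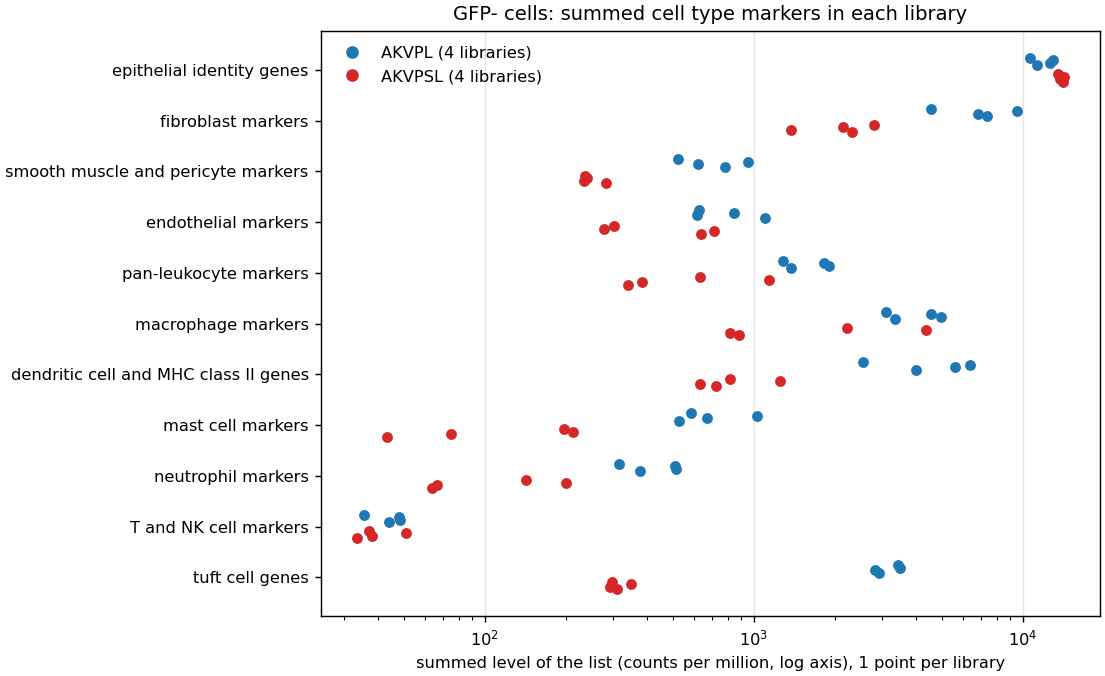
Summed level of each marker list (horizontal axis, CPM, log axis) in each of the 8 GFP- libraries; 1 point per library, AKVPL in blue and AKVPSL in red. The groups overlap for the endothelial, macrophage and T and NK cell lists and stand apart for the other lists drawn.

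Genes of the extracellular matrix were mostly lower in AKVPSL. Of 17 collagen genes 14 were lower and 1 higher (median -1.65), of 17 matrix glycoprotein and matricellular genes 13 were lower and none higher (median -1.31), and of 18 metalloproteinase and TIMP genes 15 were lower and 1 higher (median -1.56). Col7a1, the anchoring fibril collagen that epithelial cells attach to the basement membrane, had 164, 162, 143 and 126 CPM in AKVPL and 6.68, 9.36, 7.74 and 6.89 CPM in AKVPSL (-4.28 ± 0.15 (SE, adjusted p = 3.66e-10)). The groups were far apart, with little spread in either. Col12a1, a fibril-associated collagen, fell from 384 ± 43.9 to 50.1 ± 28.2 CPM (-2.94 ± 0.39 (SE, adjusted p = 0.000248)). Mmp12, a macrophage elastase, differed by -3.79 ± 0.56 (SE, adjusted p = 0.000535). In AKVPL, Fn1 averaged 6769 CPM among the GFP+ and 7959 CPM among the GFP- libraries, and Col7a1 146.9 and 148.9 CPM. Col1a1 averaged 237 and 2467 CPM there, so Fn1 and Col7a1 did not follow it across the sorts. Col12a1 (162 and 384 CPM) and Mmp12 (43.2 and 482 CPM) were lower among the GFP+ libraries. The members that rose were Col4a5, a basement membrane collagen (1.61 ± 0.19 (SE, adjusted p = 1.49e-05)), and Mmp15, a membrane-bound metalloproteinase (1.54 ± 0.15 (SE, adjusted p = 3.31e-06)).

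Genes of the epithelial-mesenchymal transition (EMT) fell with the matrix genes: 14 of 16 were lower and none higher (median -1.41). Vim, the mesenchymal intermediate filament, had 876, 1019, 1176 and 576 CPM in AKVPL and 408, 382, 321 and 299 CPM in AKVPSL (-1.37 ± 0.20 (SE, adjusted p = 7.92e-05)). The fibronectin receptor Itga5 had 226, 234, 291 and 165 CPM in AKVPL and 64.6, 50.8, 40.6 and 42 CPM in AKVPSL (-2.21 ± 0.19 (SE, adjusted p = 1.6e-06)), and the repressor Snai1 was lower by a smaller amount (-1.21 ± 0.19 (SE, adjusted p = 0.000151)). Neither gene's groups overlapped. Fibroblasts express most of this list too, and their part in it was not tested.

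Target genes of TGF-beta were mostly lower. Of 22 tested, 16 were lower and 2 higher (median -0.78). Tgfbi, a secreted matrix protein induced by TGF-beta, had 338, 435, 432 and 278 CPM in AKVPL and 72.9, 63, 179 and 111 CPM in AKVPSL (-1.80 ± 0.33 (SE, adjusted p = 0.00146)). Pmepa1, a feedback inhibitor of the pathway, had 324, 313, 332 and 233 CPM in AKVPL and 116, 110.1, 148 and 121 CPM in AKVPSL (-1.28 ± 0.14 (SE, adjusted p = 6.57e-06)), and the cell cycle inhibitor Cdkn1a fell too (-1.40 ± 0.22 (SE, adjusted p = 0.00028)). These falls left the genotypes without overlap. Against them, Pthlh, which encodes parathyroid hormone-related protein, had 14.3, 16.9, 16.1 and 20.5 CPM in AKVPL and 403, 402, 304 and 246 CPM in AKVPSL (4.33 ± 0.19 (SE, adjusted p = 2.45e-09)), and the CDK inhibitor Cdkn2b was higher (0.62 ± 0.13 (SE, adjusted p = 0.00101)).

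The ligands, receptors and SMADs of both pathways split, with 11 of 23 lower and 5 higher (2 higher under epithelial scaling). Among the ligands, Inhba, the activin A subunit, had 31.5, 19.3, 21.6 and 24.6 CPM in AKVPL and 1.62, 0.917, 1.39 and 3.99 CPM in AKVPSL (-3.60 ± 0.39 (SE, adjusted p = 2.36e-05)), and Tgfb2 differed by -2.71 ± 0.27 (SE, adjusted p = 3.01e-06). Bmp4 was higher, at 9.16, 10.8, 7.31 and 9.49 CPM in AKVPL and 22.2, 26.1, 28 and 28.8 CPM in AKVPSL (1.51 ± 0.16 (SE, adjusted p = 4.88e-06)). Of the receptors, Tgfbr1 had 126, 119, 117 and 121 CPM in AKVPL and 45.3, 47.2, 44.8 and 54.5 CPM in AKVPSL (-1.33 ± 0.10 (SE, adjusted p = 3.41e-07)), among the tightest groups described. BMP targets were 7 of 10 lower and 1 higher (median -0.94). The Id genes, which encode inhibitors of bHLH factors, did not move together: Id1 had 90.8, 102, 104 and 90.3 CPM in AKVPL and 16.7, 18, 12.2 and 12.2 CPM in AKVPSL (-2.71 ± 0.15 (SE, adjusted p = 2.26e-08)), Id3 differed by -2.47 ± 0.12 (SE, adjusted p = 9.39e-09), and Id4 rose from 3.3 ± 0.711 to 17.1 ± 3.04 CPM (2.39 ± 0.21 (SE, adjusted p = 1.04e-06)).

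Tuft cells are chemosensory epithelial cells that use a taste signalling cascade and release interleukin-25 and eicosanoids. Their genes showed the lowest median of the lists with at least 10 tested members: 23 of 24 were lower and none higher, with a median of -5.71, or -5.61 with the genes at 0 in AKVPSL set to their bound. The list summed to 2827 to 3496 CPM in AKVPL and 291 to 350 CPM in AKVPSL, a 10.2-fold difference of the means. Pou2f3, the transcription factor that specifies tuft cells, had 123, 103, 123 and 158 CPM in AKVPL and 2.15, 2.27, 1.61 and 1.05 CPM in AKVPSL (-6.16 ± 0.23 (SE, adjusted p = 1.08e-09)). Dclk1, a kinase used as the tuft cell marker, had 182, 169, 188 and 209.7 CPM in AKVPL and 2.48, 1.93, 1.88 and 1.69 CPM in AKVPSL (-6.54 ± 0.15 (SE, adjusted p = 1.59e-11)). The cascade downstream of the receptors went the same way, with the G protein subunits Gnat3 (-7.35 ± 0.21 (SE, adjusted p = 7.5e-11)) and Gnb3 (-9.90 ± 0.19 (SE, adjusted p = 5.52e-12)) and the phospholipase Plcb2 (-6.70 ± 0.23 (SE, adjusted p = 5.88e-10)); Gnb3 had 326, 316, 414 and 376 CPM in AKVPL and 0.298, 0.338, 0.492 and 0.362 CPM in AKVPSL.

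Several tuft genes were close to or at 0 in AKVPSL. Rgs13, a brake on G protein signals, had 187, 176, 219.7 and 197 CPM in AKVPL and 0.794, 0.531, 1.03 and 1.25 CPM in AKVPSL (-7.74 ± 0.20 (SE, adjusted p = 3.48e-11)). The transcription factor Hmx3 was counted 369 times in AKVPL and never in AKVPSL, at least 140-fold lower, and Chat, which makes acetylcholine, 126 times and never, at least 47.9-fold lower. Il25 was counted 90 times in AKVPL and once in AKVPSL, a ratio of 103 with a 95% counting interval of 18.0 to 4100. The eicosanoid enzymes, which leukocytes also express, differed least: Alox5 was lower (-1.84 ± 0.51 (SE, adjusted p = 0.0121)), and Ptgs1 had 99, 104, 105 and 97.3 CPM in AKVPL and 75.7, 69.5, 130.3 and 88.9 CPM in AKVPSL (-0.15 ± 0.17 (SE, adjusted p = 0.458)), with a call only without AKVPSL replicate 3 (-0.34).

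Genes of the other differentiated lineages moved in both directions. Goblet cell genes were 9 of 16 higher and 4 lower (median 0.88). The trefoil peptide Tff3 had 0.181, 0.413, 0.247 and 0.348 CPM in AKVPL and 2.75, 1.93, 3.62 and 2.7 CPM in AKVPSL (3.21 ± 0.36 (SE, adjusted p = 8.82e-06)), and the mucus chaperone Agr2 had 45.5 ± 20.8 CPM in AKVPL and 108 ± 27.7 CPM in AKVPSL (1.24 ± 0.30 (SE, adjusted p = 0.00682)). The mucus protein Fcgbp went the other way, from 48.5, 50.2, 49.9 and 70.2 CPM to 1.12, 0.531, 1.12 and 3.22 CPM (-5.17 ± 0.44 (SE, adjusted p = 1.12e-05)). Of 12 Paneth cell genes 8 were tested, with a median of -0.73. Of these 3 were higher, among them the lectin Reg4 (1.53 ± 0.20 (SE, adjusted p = 2.89e-05)). The other 5 were lower, among them the lysozyme Lyz1 (-2.01 ± 0.61 (SE, adjusted p = 0.0197)). The Lyz1 call was lost without AKVPL replicate 4 (-1.70) and without the low-count filter (-1.99), and Lyz1 has a near-identical copy, Lyz2.

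Enteroendocrine genes split evenly, 3 of 8 tested higher and 3 lower (18 listed, median -0.51). The hormone granule protein Chga fell from 5.32, 4.99, 1.63 and 7.75 CPM to 0.265, 0.241, 0.0447 and 0.121 CPM (-4.79 ± 0.55 (SE, adjusted p = 1.22e-05)), whereas the transcription factor Isl1 was counted 3 times in AKVPL and 148 times in AKVPSL, a ratio of 43.2 (95% counting interval 14.5 to 212). Enterocyte and colonocyte genes likewise gave 4 of 10 tested higher and 4 lower (20 listed, median 0.09). Carbonic anhydrase 2 (Car2), abundant in surface colonocytes, had 13, 16.1, 17.2 and 17.3 CPM in AKVPL and 672, 681, 491 and 456 CPM in AKVPSL (5.18 ± 0.18 (SE, adjusted p = 4.44e-10)). The fatty acid carrier Fabp1 was counted 64 times in AKVPL and once in AKVPSL, a ratio of 73.0 (12.6 to 2930).

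Genes of squamous epithelium moved in both directions, 4 of 14 higher and 5 lower, near the shares over all genes (29.2% and 29.8%). Krt14, a basal keratin, had 164, 184, 162 and 106 CPM in AKVPL and 3.41, 3.67, 6.58 and 4.87 CPM in AKVPSL (-5.06 ± 0.25 (SE, adjusted p = 4.27e-08)). Krt17 (-4.07 ± 0.38 (SE, adjusted p = 2.58e-05)) and the basal cell factor Trp63 (-5.20 ± 0.73 (SE, adjusted p = 5.62e-05)) were lower too; Trp63 was low in every library, with 0.543 to 2.18 CPM in AKVPL. The members that rose were Ivl, the cornified envelope protein involucrin (2.18 ± 0.15 (SE, adjusted p = 1.72e-07)), Lypd3 (1.30 ± 0.21 (SE, adjusted p = 0.000142)), the keratin Krt4 (0.80 ± 0.21 (SE, adjusted p = 0.00692)) and the desmosomal protein Perp (0.52 ± 0.10 (SE, adjusted p = 0.0007)), the last not under epithelial scaling (0.23). Genes of the fetal and regenerative epithelium, which reappear in the adult crypt after injury, were 11 of 20 higher and 5 lower (median 0.75, and 0.45 under epithelial scaling). Ly6a, the surface antigen Sca-1, had 248, 257, 211 and 194 CPM in AKVPL and 1119, 1046, 1184 and 912 CPM in AKVPSL (2.23 ± 0.14 (SE, adjusted p = 5.44e-08)). Annexin A3 (Anxa3, 1.95 ± 0.13 (SE, adjusted p = 1.07e-07)) and the calcium-binding protein S100a6 (1.19 ± 0.15 (SE, adjusted p = 2.53e-05)) were higher in AKVPSL, while clusterin (Clu) had 9650, 9090, 9547 and 6807 CPM in AKVPL and 4587, 3902, 6506 and 5517 CPM in AKVPSL (-0.77 ± 0.18 (SE, adjusted p = 0.00257)) and the kinase substrate Marcks fell further (-1.53 ± 0.26 (SE, adjusted p = 0.000639)).

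**Figure D3:**
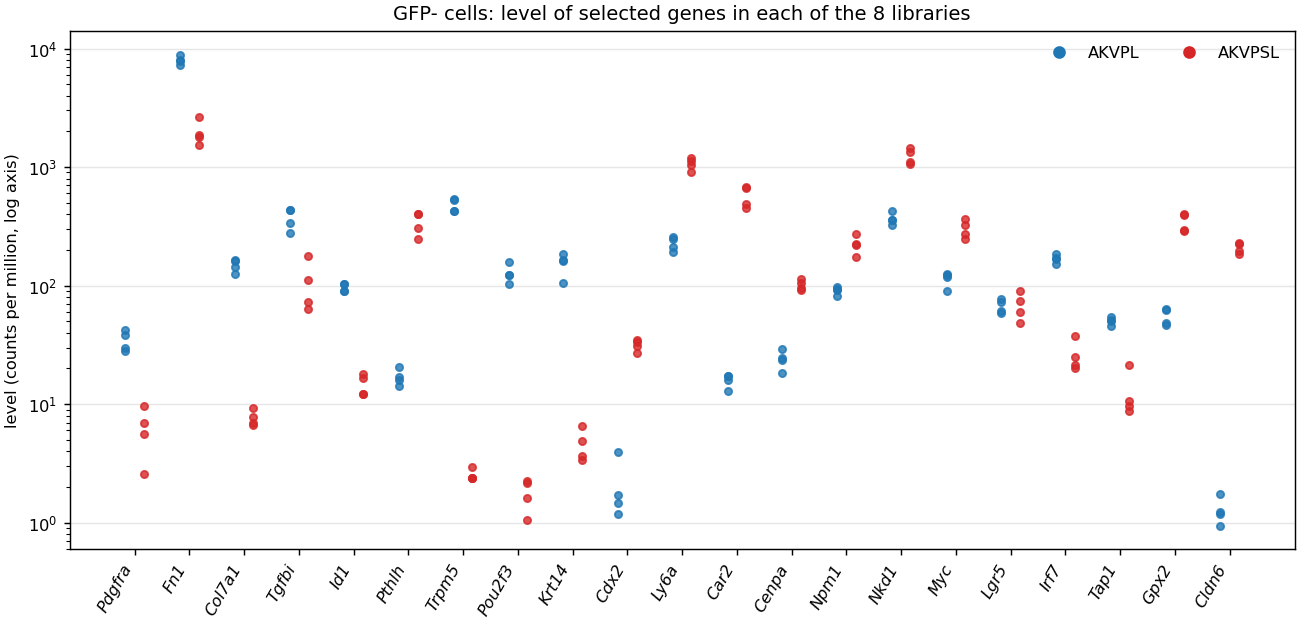
Level of 21 genes (CPM, log axis) in each of the 8 GFP- libraries, 1 point per library, AKVPL in blue and AKVPSL in red. The groups overlap for Lgr5 and stand apart for the other genes drawn, with Trpm5 and Cldn6 at opposite extremes.

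All 28 mitosis genes tested were higher in AKVPSL, with a median of 1.16; for 27 of them every AKVPSL library was above every AKVPL library. Under epithelial scaling 25 were higher and none lower (median 0.86). The list summed to 568 to 721 CPM in AKVPL and 1130 to 1715 CPM in AKVPSL. Birc5, which guides chromosomes at division, had 12.7, 13.6, 12 and 10.3 CPM in AKVPL and 53.7, 42.8, 45.2 and 37.5 CPM in AKVPSL (1.88 ± 0.14 (SE, adjusted p = 3.73e-07)). The proliferation antigen Mki67 had 103, 90, 79.5 and 87.2 CPM in AKVPL and 214, 206, 110.4 and 155 CPM in AKVPSL (0.93 ± 0.19 (SE, adjusted p = 0.00103)), with AKVPSL replicate 3 nearest to the AKVPL range. The mitotic cyclin Ccnb1 differed by 1.61 ± 0.27 (SE, adjusted p = 0.000205). The smallest rise of the list was that of the ubiquitin-conjugating enzyme Ube2c (0.56 ± 0.15 (SE, adjusted p = 0.00631)), which was not called under epithelial scaling (0.27).

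Promoters of mitosis genes often carry a CCAAT box and the cell cycle homology region, through which such genes are held down outside division. The windows shown come from the 250 bases before a start site in the RefSeq promoter table (GRCm38.p6). They are from the 3 mitosis genes with the largest rise among those with a homology region there. That these 3 genes share the region was therefore set in advance. The windows are on the gene's strand, 5′ to 3′, with the homology region (TTTGAA) and any CCAAT box (CCAAT) in capitals on either strand.
Cdk1, chr10:69352913-69352972, minus strand: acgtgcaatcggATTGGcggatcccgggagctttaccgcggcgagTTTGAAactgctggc
Ccnb2, chr9:70421671-70421766, minus strand: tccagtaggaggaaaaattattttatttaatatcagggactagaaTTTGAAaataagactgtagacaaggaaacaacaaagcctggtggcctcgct
Cdc20, chr4:118437344-118437406, minus strand: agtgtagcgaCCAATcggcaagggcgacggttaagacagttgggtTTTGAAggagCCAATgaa
Both motifs stand in the windows of Cdk1 and Cdc20, 15 and 18 bases before the start site for the homology region, and the Ccnb2 window holds the homology region without a CCAAT box. The differences were 1.56 for Cdk1, 1.56 for Ccnb2 and 1.47 for Cdc20. Over the list, 23 genes matched 24 promoters, of which 83.3% held a CCAAT box and 33.3% the homology region, against 33.85% and 15.99% of all 32851 promoters in the table. Neither motif contains the other, and a match is a description and not a measured site.

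DNA replication genes followed, 23 of 29 higher and none lower (median 0.75), and 18 under epithelial scaling. Rrm2, the ribonucleotide reductase subunit that supplies deoxynucleotides, had 14.8, 16.2, 15.9 and 15.5 CPM in AKVPL and 70.5, 56, 31.9 and 46.6 CPM in AKVPSL (1.72 ± 0.20 (SE, adjusted p = 1.48e-05)). The helicase subunit Mcm7 had 34.5, 35.6, 38 and 31.6 CPM in AKVPL and 98.1, 84.6, 78.7 and 81.2 CPM in AKVPSL (1.29 ± 0.11 (SE, adjusted p = 9.06e-07)). The factor E2f1, which drives the G1/S programme, had a value of 0.05 ± 0.18 (SE, adjusted p = 0.84). Ribosome biogenesis genes were 16 of 20 higher and none lower (median 0.69), and 12 under epithelial scaling (0.40). The nucleolar chaperone Npm1 had 93.3, 97, 92.4 and 81.5 CPM in AKVPL and 221, 275, 224 and 175 CPM in AKVPSL (1.29 ± 0.14 (SE, adjusted p = 4.88e-06)), and the nucleolar protein Nop16 differed by 1.20 ± 0.13 (SE, adjusted p = 8.87e-06).

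Crypt base stem cell genes moved in both directions, 9 of 19 higher and 6 lower; the median was 0.19, and -0.10 under epithelial scaling. The cotransporter Slc12a2, high in crypt base cells, had 281, 234, 230.5 and 262 CPM in AKVPL and 855, 711, 809.6 and 1014 CPM in AKVPSL (1.75 ± 0.13 (SE, adjusted p = 3.46e-07)). Sox9, a factor of crypt progenitors, was higher (1.20 ± 0.11 (SE, adjusted p = 1.67e-06)). The RNA-binding protein Msi1 had 25.8, 20.8, 24.4 and 20.9 CPM in AKVPL and 0.794, 0.965, 1.25 and 2.09 CPM in AKVPSL (-4.17 ± 0.27 (SE, adjusted p = 8.39e-08)). The secreted stem cell marker Olfm4 was below 3 CPM in every library (-1.26 ± 0.49 (SE, adjusted p = 0.0417)), and its call was lost under 8 alternatives, with values of -0.28 to -1.30.

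WNT targets and feedback genes gave 8 of 18 higher and 4 lower, with a median of 0.28, and -0.02 under epithelial scaling. Nkd1, a feedback inhibitor of Dishevelled, had 328, 361, 356 and 422 CPM in AKVPL and 1329, 1442, 1107 and 1061 CPM in AKVPSL (1.75 ± 0.14 (SE, adjusted p = 4.38e-07)). Myc, the growth-promoting transcription factor, had 118, 124, 126 and 90.9 CPM in AKVPL and 324, 366, 249 and 274 CPM in AKVPSL (1.40 ± 0.15 (SE, adjusted p = 4.88e-06)). Both were above the AKVPL range in every AKVPSL library. Axin2, the most used WNT reporter gene, had 236, 229.7, 196 and 341 CPM in AKVPL and 203, 292, 274 and 268 CPM in AKVPSL (0.05 ± 0.17 (SE, adjusted p = 0.821)), and the homeobox factor Prox1 was lower (-1.38 ± 0.19 (SE, adjusted p = 5.7e-05)).

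Notch genes were 7 of 15 lower and 2 higher. The ligand Dll1, which secretory progenitors show to their neighbours, had 17.7, 19, 21.2 and 17.4 CPM in AKVPL and 2.71, 1.78, 2.33 and 2.46 CPM in AKVPSL (-3.01 ± 0.18 (SE, adjusted p = 5.44e-08)); the target Hes1 rose slightly (0.40 ± 0.11 (SE, adjusted p = 0.00842)), but not under epithelial scaling (0.12). Of 17 YAP-TEAD genes 11 were lower and 4 higher. The ectonucleotidase Nt5e (CD73) had 158, 141, 135 and 104 CPM in AKVPL and 9.49, 13.1, 12 and 7.69 CPM in AKVPSL (-3.67 ± 0.19 (SE, adjusted p = 1.27e-08)), and the receptor kinase Axl, which macrophages and fibroblasts also express, differed by -2.31 ± 0.33 (SE, adjusted p = 0.000325). MAP kinase feedback genes and ERBB ligands were 12 of 21 higher and 2 lower (median 0.55), or 4 lower without AKVPSL replicate 4. Among the feedback genes, Spry4 had 26.9, 31.4, 36.1 and 37.8 CPM in AKVPL and 89.9, 64.1, 54.1 and 69.5 CPM in AKVPSL (1.08 ± 0.16 (SE, adjusted p = 9.15e-05)), and the ETS factor Etv5 differed by 1.05 ± 0.14 (SE, adjusted p = 4.27e-05), while the receptor Egfr was lower at 72.1, 77.1, 63.2 and 87 CPM in AKVPL and 32.3, 35.1, 30.3 and 35.8 CPM in AKVPSL (-1.16 ± 0.12 (SE, adjusted p = 4.41e-06)).

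Interferon-stimulated genes, which interferon signalling switches on at a response element in their promoters, were lower in AKVPSL almost without exception. Of 28 tested, 27 were lower and none higher (median -2.18), and the sums were 1529 to 1773 CPM in AKVPL and 345 to 596 CPM in AKVPSL. The gene Oas2, a sensor of double-stranded RNA, had 124, 83.3, 116 and 105 CPM in AKVPL and 4.93, 8.25, 8.41 and 4.31 CPM in AKVPSL (-4.06 ± 0.23 (SE, adjusted p = 1.18e-07)). Irf7, which amplifies the interferon response, had 167, 152, 184 and 170.2 CPM in AKVPL and 20.2, 25.2, 37.5 and 21.4 CPM in AKVPSL (-2.69 ± 0.18 (SE, adjusted p = 1.61e-07)). The groups were apart for both. The exception was the chemokine Cxcl10, at 28.7, 39.2, 37.9 and 19.7 CPM in AKVPL and 17.3, 33.5, 52.4 and 30.7 CPM in AKVPSL (0.09 ± 0.33 (SE, adjusted p = 0.84)). Leukocyte markers, which fell as well, overlap with this list in the cells that express them, and their part in the result was not tested.

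The response element is shown because many of these genes, though not all, share it. Of the 28 genes, 21 matched 25 promoters in the RefSeq table, and 56.0% of these held GAAA followed, after any 2 bases, by a second GAAA, on either strand within 250 bases before the start site, against 2.98% of all 32851 promoters. Windows of the 4 genes with the largest fall among those that hold it are shown on the gene's strand, 5′ to 3′, with the element in capitals; overlapping matches run together.
Igtp, chr11:58199477-58199555, plus strand: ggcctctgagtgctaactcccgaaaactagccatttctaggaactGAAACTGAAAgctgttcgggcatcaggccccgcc
Oas1a, chr5:120907526-120907584, minus strand: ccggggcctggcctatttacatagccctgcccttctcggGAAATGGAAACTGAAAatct
Oas3, chr5:120777680-120777779, minus strand: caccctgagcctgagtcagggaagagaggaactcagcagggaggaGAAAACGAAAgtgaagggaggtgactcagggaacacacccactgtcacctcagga
Rsad2, chr12:26456518-26456617, minus strand: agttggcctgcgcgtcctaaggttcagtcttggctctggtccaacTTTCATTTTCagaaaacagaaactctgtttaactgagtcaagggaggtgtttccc
Oas1a carries 2 overlapping matches, the nearer one 14 bases before the start site, and Rsad2 carries its match on the opposite strand. The differences of these genes were -2.76 for the GTPase Igtp, -2.74 for Oas1a, -2.69 for Oas3 and -2.46 for the antiviral enzyme Rsad2. The promoter of Cxcl10, which was not called, also holds a match, and so does that of Ifit1, an interferon-induced inhibitor of translation (-2.40 ± 0.31 (SE, adjusted p = 7.19e-05)). A match says that the letters are there and not that the site was used.

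Genes that present peptides on MHC class I, themselves interferon-responsive, were 12 of 14 lower and none higher (median -0.97). The coactivator Nlrc5 had 22.4, 21, 26.3 and 24.1 CPM in AKVPL and 4.17, 5.26, 3.94 and 2.94 CPM in AKVPSL (-2.52 ± 0.19 (SE, adjusted p = 2.76e-07)), and the peptide transporter Tap1 had 51.6, 50.1, 53.9 and 45.7 CPM in AKVPL and 10.6, 9.6, 21.2 and 8.82 CPM in AKVPSL (-2.01 ± 0.25 (SE, adjusted p = 5.19e-05)). The heavy chain H2-K1 moved least among those named (-0.44 ± 0.14 (SE, adjusted p = 0.014)), and was not called without AKVPL replicate 3 (-0.33); reads of class I genes can be split between near-identical copies.

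Chemokines had no common direction, with 5 of 26 higher and 8 lower (3 and 10 under epithelial scaling). Cxcl15, an epithelial neutrophil attractant, had 0.145, 0.488, 0.395 and 1.13 CPM in AKVPL and 62.6, 67.7, 36.1 and 32.1 CPM in AKVPSL (6.74 ± 0.47 (SE, adjusted p = 2.09e-06)), and Ccl17, a dendritic cell product, had 206, 238, 317 and 109 CPM in AKVPL and 11.1, 11.8, 16.7 and 10.1 CPM in AKVPSL (-4.13 ± 0.34 (SE, adjusted p = 8.48e-06)). Inflammatory genes under NF-kappa-B were 10 of 20 lower and 1 higher (median -0.47). The iron-scavenging lipocalin Lcn2 had 186, 214, 150.2 and 223 CPM in AKVPL and 22.9, 38.8, 37.3 and 36.8 CPM in AKVPSL (-2.51 ± 0.18 (SE, adjusted p = 2.76e-07)).

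**Figure D4:**
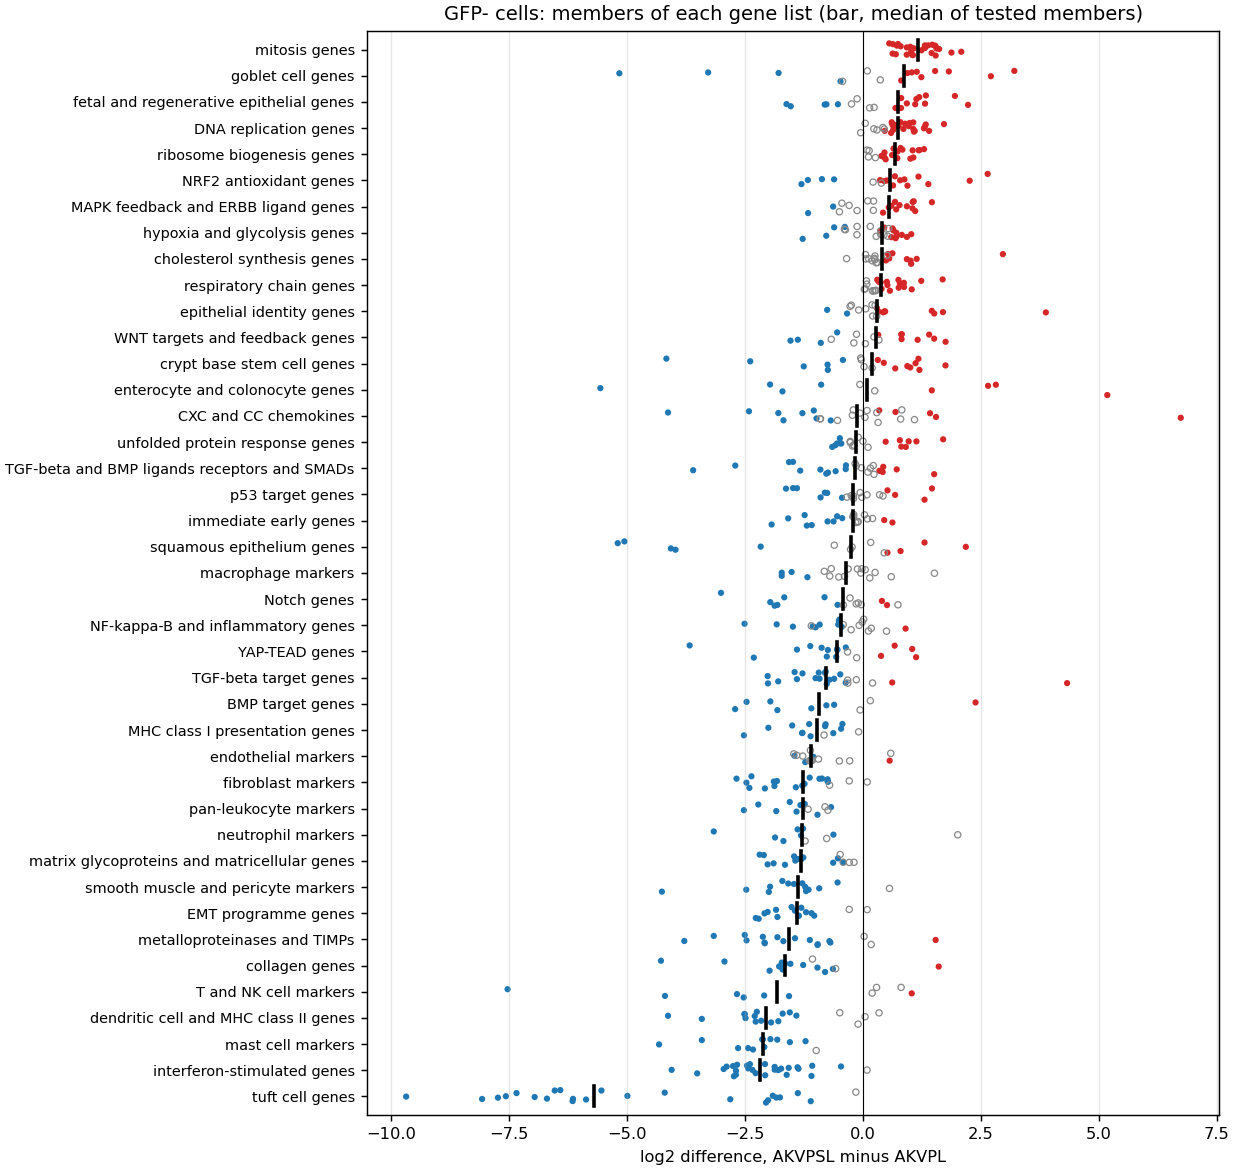
Log2 difference (AKVPSL minus AKVPL, horizontal axis) of every tested member of each list with at least 10 tested members; filled points are called, higher in red and lower in blue, open points are not called, and the bar is the median. The medians run from -5.71 for tuft cell genes to 1.16 for mitosis genes.

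Metabolic lists leaned upward by small amounts. Respiratory chain genes were 16 of 25 higher and none lower (median 0.38; 8 and 0.09 under epithelial scaling), and cholesterol synthesis genes 9 of 20 higher and none lower (5 higher and 1 lower under epithelial scaling). Ndufa4, a respiratory chain subunit, had 136, 137, 147 and 111 CPM in AKVPL and 465, 445, 455 and 350.3 CPM in AKVPSL (1.69 ± 0.13 (SE, adjusted p = 3.6e-07)). Hypoxia and glycolysis genes were 11 of 26 higher and 4 lower, but 5 higher and 7 lower under epithelial scaling, and 6 or 7 higher without AKVPL replicate 1, AKVPL replicate 3, AKVPSL replicate 3 or AKVPSL replicate 4; the glycolytic enzymes Tpi1 (1.02 ± 0.17 (SE, adjusted p = 0.000169)) and Pgk1 (0.93 ± 0.15 (SE, adjusted p = 0.000137)) were higher and the hypoxia-induced carbonic anhydrase Car9 was lower (-1.28 ± 0.22 (SE, adjusted p = 0.000452)).

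Among stress genes, the NRF2 antioxidant list gave 12 of 18 higher and 4 lower (median 0.57). The glutathione peroxidase Gpx2 had 48.2, 63.8, 61.7 and 46.6 CPM in AKVPL and 394, 288, 401 and 295 CPM in AKVPSL (2.64 ± 0.16 (SE, adjusted p = 4.89e-08)), while sulfiredoxin (Srxn1) was lower (-1.30 ± 0.15 (SE, adjusted p = 1.38e-05)). Genes of the unfolded protein response divided into 7 of 20 higher and 6 lower (5 and 12 under epithelial scaling), with asparagine synthetase (Asns) up (1.70 ± 0.14 (SE, adjusted p = 5.68e-07)) and the chaperone Hspa5 down (-0.59 ± 0.12 (SE, adjusted p = 0.00119)). Immediate early genes were 9 of 20 lower and 2 higher (15 and none under epithelial scaling), and the zinc finger factor Egr3 had 160.2, 205, 216 and 235 CPM in AKVPL and 58.3, 46.5, 43 and 65 CPM in AKVPSL (-1.94 ± 0.16 (SE, adjusted p = 5.82e-07)). Of the p53 targets 7 of 20 were lower and 4 higher (11 and 3 under epithelial scaling); the stress cytokine Gdf15 was among the latter (1.30 ± 0.34 (SE, adjusted p = 0.00839)).

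Beyond these lists, the lowest values among well-measured genes were those of genes counted almost only in AKVPL. Lipf, the gastric lipase, was counted 1158 times in AKVPL and never in AKVPSL, at least 441-fold lower. Dmbt1, a mucosal scavenger receptor, was counted 683 times and never (at least 260-fold lower), Zp2, an egg coat glycoprotein, 654 times and never (at least 249-fold), and the neuronal endosomal protein Nsg2 628 times and never (at least 239-fold). The antimicrobial lectin Reg3b had 58.7, 44.2, 52.5 and 26.5 CPM in AKVPL and 0, 0.0483, 0.134 and 0 CPM in AKVPSL (-9.94 ± 0.49 (SE, adjusted p = 5.14e-08)). Apob, the core protein of chylomicrons, had 128, 77.6, 69.2 and 92.9 CPM in AKVPL and 0.364, 0.0965, 0.179 and 0.403 CPM in AKVPSL (-8.37 ± 0.32 (SE, adjusted p = 3.08e-09)). Atcay, a neuronal lipid-binding protein, fell by a like amount (-8.53 ± 0.36 (SE, adjusted p = 2.08e-09)), and Rgs21, a G protein regulator of taste cells, was counted 500 times in AKVPL and once in AKVPSL (ratio 571, 95% counting interval 102 to 22600).

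At the other end, genes nearly silent in AKVPL were expressed in AKVPSL. Wfdc2, a secreted protease inhibitor, had 1.52, 5.14, 0.543 and 5.4 CPM in AKVPL and 547, 436, 744 and 466 CPM in AKVPSL (7.50 ± 0.64 (SE, adjusted p = 2.01e-05)). Cldn6, a claudin of embryonic epithelia, had 0.941, 1.24, 1.19 and 1.74 CPM in AKVPL and 224, 183, 227 and 194 CPM in AKVPSL (7.40 ± 0.18 (SE, adjusted p = 1.6e-11)). The X-linked homeobox gene Rhox5 (7.21 ± 0.70 (SE, adjusted p = 3.23e-05)) and Khdc1a, active in the early embryo (6.88 ± 0.36 (SE, adjusted p = 1.52e-08)), belonged to the same extreme. Others were the glycosyltransferase-like gene Galntl6 (6.75 ± 0.45 (SE, adjusted p = 1.11e-07)), the potassium channel Kcnk2 (6.22 ± 0.43 (SE, adjusted p = 1.41e-07)) and the secreted factor Ndnf (5.81 ± 0.18 (SE, adjusted p = 1.77e-10)).

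The genotype difference of GFP- cells was then set against that of GFP+ cells, from the other 8 libraries; same-numbered GFP+ and GFP- libraries of a genotype deviate together, so the sorts are not independent. Of the genes higher in AKVPSL among GFP- cells, 65.5% were also higher among GFP+ cells (69.1% of the GFP+ calls), and of those lower, 68.8% were also lower (68.7% of the GFP+ calls), over 16525 genes tested in both sorts. Of all these genes 28.6% were higher among GFP+ cells and 28.6% lower. Opposite calls were made for 83 genes higher in GFP- and lower in GFP+ cells and for 109 the other way. The difference between the 2 effects was tested as an interaction across all 16 libraries: 2483 of 18072 genes (13.7%) had a higher value in GFP- cells and 1269 (7.02%) a lower one. This split turns on the scaling. Under epithelial scaling the median interaction moved from 0.101 to -0.221 and the counts to 684 and 3419, and with DESeq2's size factors they were 1771 and 1716.

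Cell division and the interferon response differed between the sorts under each scaling. Of 28 mitosis genes 20 had a higher value in GFP- cells and none a lower one (11 and none under epithelial scaling); the list's median was 1.16 in GFP- cells and 0.39 in GFP+ cells, where 12 were higher and 2 lower. For Birc5 the differences were 1.88 in GFP- and 0.40 in GFP+ cells (interaction 1.505, adjusted p = 0.000438). Of 28 interferon-stimulated genes 18 had a higher value in GFP- cells, that is a smaller fall, and none a lower one (14 and none under epithelial scaling); the medians were -2.18 in GFP- and -3.45 in GFP+ cells. Irf7 fell by 2.69 in GFP- and by 4.62 in GFP+ cells (interaction 1.95, adjusted p = 0.000194). Of 29 DNA replication genes 8 differed, all higher in GFP- cells, and under epithelial scaling 1 did. With the replicate number within each genotype as a block, which pairs same-numbered GFP+ and GFP- libraries, 19 did. The labels do not say whether such libraries come from the same tumour.

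Fetal and regenerative genes gave 8 of 20 with a higher value in GFP- cells and none with a lower one (7 and none under epithelial scaling). Ly6a differed by 2.23 between genotypes in GFP- and by 0.49 in GFP+ cells (interaction 1.77, adjusted p = 1.86e-06), and S100a6 was higher in AKVPSL in GFP- cells (1.19) and lower in GFP+ cells (-0.51; interaction 1.73, adjusted p = 4.33e-06). Tuft cell genes were lost in both sorts, 23 of 24 lower in GFP- cells and 24 of 24 in GFP+ cells; 10 had a higher value in GFP- cells and 2 a lower one. Of 23 ligands, receptors and SMADs of the TGF-beta and BMP pathways, 7 had a lower value in GFP- cells and none a higher one. Epithelial scaling gave 14 and none, and the block for replicate number within each genotype 10 and none. Tgfbr1 was among the 7 (-1.33 in GFP-, -0.30 in GFP+, interaction -1.003, adjusted p = 0.000215). Twist1 showed the widest gap of the genes described: 0.09 in GFP- and 3.74 in GFP+ cells (interaction -3.62, adjusted p = 4.9e-06).

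**Figure D5:**
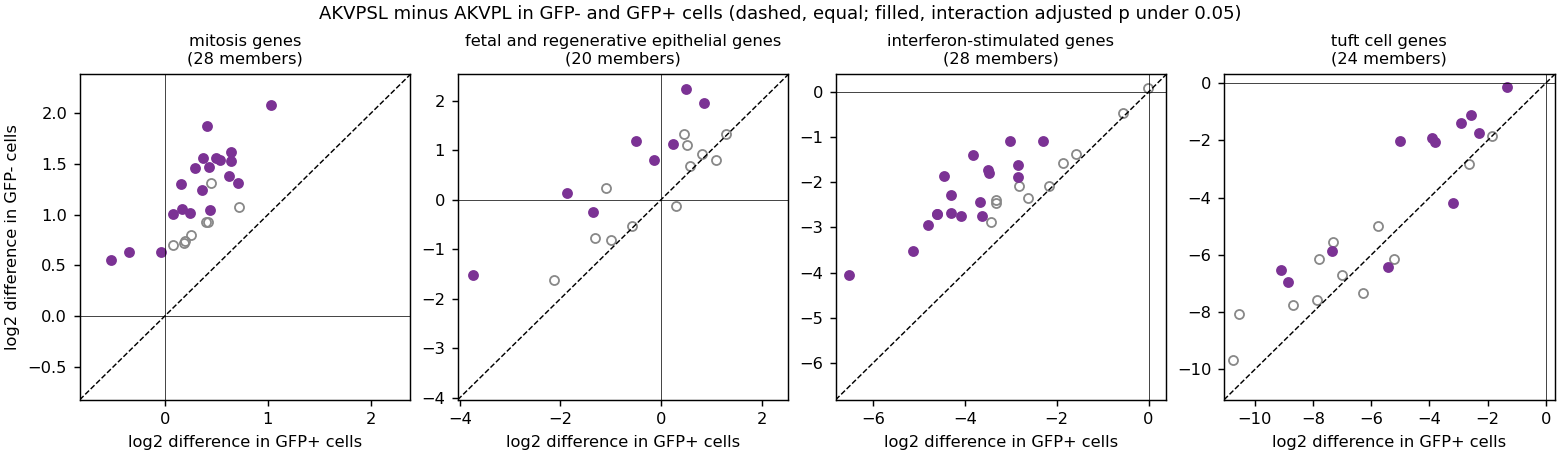
Log2 difference (AKVPSL minus AKVPL) in GFP- cells (vertical axis) against that in GFP+ cells (horizontal axis), 1 point per list member, with the line of equal values dashed; filled points have an interaction adjusted p under 0.05. All 28 mitosis genes lie above the line, and the filled points of the interferon list lie above it too.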

How the data were processed

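Whole-transcriptome libraries of sorted mouse tumour cells were deposited as 1 table per library. Per the file headers, the deposited counts are reads aligned uniquely to a gene model; GSNAP (an aligner) and GRCm38 are listed, per the submitters' processing notes, while neither tool versions nor annotation nor strand setting is recorded in the labels, so overlapping and antisense genes cannot be told apart. The deposited RPKM values are size-factor-adjusted by the authors, per the file headers, and entered 1 alternative only, as log2(RPKM + 1). Libraries were grouped by title. Entrez IDs were named from the RefSeq table of GRCm38.p6 (31049 of 36528 matched, 85.0%); unmatched IDs were kept in the fit.

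The 8 GFP- libraries (10881115 to 31109999 counts) were fitted alone with edgeR 4.0.16 in R 4.3.3 (TMM, filterByExpr, robust quasi-likelihood F test, biological coefficient of variation 0.195 on 6 residual degrees of freedom), with the threshold at an adjusted p of 0.05. The interaction used all 16 libraries. Alternatives were other scalings, no filter, DESeq2 1.42.0, limma 3.58.1, a replicate block, 1 fit of 16 libraries, and each library left out. On simulated counts 155 of 200 changed genes were recovered in the GFP- comparison over 17237 genes, 90% of the 2-fold and 20% of the 1.5-fold changes, with 5.49% false calls; for the interaction over 18072 genes it was 122 of 200 and 44% of the 2-fold changes. The simulation gave every gene the same dispersion and changed far fewer genes than the 58.9% called here. Its rates therefore need not hold for these data. Same-numbered GFP+ and GFP- libraries of a genotype deviated together (r of 0.106 to 0.333 across genes in all 8 pairs). The labels do not say whether they come from the same tumour. No 2 libraries of a group differed by less than sampling noise.

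The 46 gene lists (861 entries, 828 distinct genes, 32 of them in more than 1 list) and the genes described were chosen with earlier results of these data known; lists are described by counts and medians, with no set test. Genes named were Lgr5, the genotype genes, Vil1 and 4 markers, the 15 largest called differences each way among genes whose groups do not overlap and whose mean log2 CPM is 1 or more, and up to 5 called members of each list with any against its majority; 117 of the 143 described came from this rule of 292 genes. The other 26, Col1a1, Twist1, Acta2, Cdh5, C1qa, Epcam, Pmepa1, Tgfbr1, Vim, Snai1, Dclk1, Pou2f3, Plcb2, Il25, Alox5, Ptgs1, Agr2, S100a6, Mki67, Ube2c, E2f1, Axin2, Irf7, Ifit1, Cxcl10 and H2-K1, and the genes of the printed promoters were chosen after their values were seen. Some genes the rule names are not reported here. Floors and ratios use 3 counts and 95% intervals, which cover counting error only.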

Additional observations from a re-analysis of the deposited data

Results flagged for a closer look

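In 13 of 286 groups of 4 libraries checked, 1 library stood far from the other 3 (its gap to the nearest passed Dixon's critical value at the 95% level); chance marks about 1 in 20 groups. Among the AKVPSL libraries, replicate 3 was the high one for Cdkn2b (113 CPM), Tap1 (21.2 CPM) and H2-K1 (349 CPM), replicate 4 was low for Epcam (1793 CPM), replicate 1 was low for Lcn2 (22.95 CPM), and replicate 2 was high for Trpm5 (2.94 CPM). Single counts put AKVPSL replicate 2 apart for Il25 and Fabp1 (0.0482 CPM each) and AKVPSL replicate 1 apart for Rgs21 (0.0331 CPM). Among the AKVPL libraries, replicate 4 was high for Fcgbp (70.2 CPM) and Atcay (34.2 CPM), replicate 3 was low for Trp63 (0.543 CPM), and replicate 2 was high for Rhox5 (0.6 CPM).

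For 50 of the 143 genes described, the genotype difference in GFP- cells was itself different from that in GFP+ cells, by the interaction test of edgeR's quasi-likelihood fit over 16 libraries. Each value below is the log2 difference in GFP- cells minus that in GFP+ cells. All 50 kept their sign under 3 other scalings, without the low-count filter, with DESeq2's Wald test and with replicate number within genotype as a block. Of these, 33 kept the call under epithelial scaling and 50 with that block. The 17 not called under epithelial scaling were Ccnb1, Cldn3, Cldn6, Epcam, Galntl6, H2-K1, Hes1, Id3, Krt17, Lypd3, Mcm7, Ndnf, Nop16, Perp, Pmepa1, Pthlh and Sox9. Cldn3 and Epcam belong to the list that sets this scaling.

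Genes of division and growth had higher values in GFP- cells: Cenpa 1.09, Birc5 1.505, Ccnb1 1.004, Ube2c 1.12, Mcm7 0.67, Npm1 0.88 and Nop16 0.63. Interferon and class I genes fell less in GFP- cells, with values of 2.48 for Oas2, 1.95 for Irf7, 2.94 for Nlrc5, 2.22 for Tap1 and 0.60 for H2-K1. Of the tuft cell genes, Dclk1 gave 2.59 and Ptgs1 1.20. The fetal and regenerative genes Ly6a, Anxa3, S100a6 and Marcks gave 1.77, 1.13, 1.73 and 2.24. Epithelial genes gave 0.47 for Epcam, 0.90 for Cdh17, 0.52 for Cldn3 and 0.71 for Cldn6, and the squamous genes Krt14, Krt17, Lypd3 and Perp gave 2.15, 1.40, 0.94 and 0.53.

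In the TGF-beta and BMP pathways the values were 0.59 for Pmepa1, 0.86 for Pthlh, 1.14 for Cdkn2b, -1.003 for Tgfbr1, 1.45 for Id1, 0.59 for Id3 and -1.11 for Id4. Matrix, contractile and mesenchymal genes gave -0.82 for Fn1, 1.34 for Itga5, 2.13 for Col7a1, 2.66 for Myl9 and -3.62 for Twist1. The goblet and Paneth cell genes Reg4 and Tff3 were raised less in GFP- cells (-2.78 and -1.45). Signalling genes gave 0.49 for Sox9, 0.40 for Hes1, 1.78 for Nt5e, -0.62 for Etv5, -1.003 for Spry4 and -1.56 for Egr3. The remaining values were 0.89 for Ndufa4, 1.16 for Gpx2, 1.96 for Galntl6 and 1.15 for Ndnf.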

How the results depend on the processing

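Of the 132 called genes described, 121 kept direction and call under every alternative run, 11 lost the call under at least 1, and 4 others gained one; no direction reversed. Epithelial scaling gave 3122 genes higher in AKVPSL, 1007 of them by at least 2-fold, and moved the interaction counts to 684 higher and 3419 lower. With limma on log2(RPKM + 1), which shrinks the differences of low genes, 892 genes were at least 2-fold higher and 1593 lower. Without the low-count filter 1542 interaction genes were higher, and DESeq2's Wald test gave 2065 lower. Leaving out each library gave 4578 to 5194 genes higher and 4547 to 5005 lower, 1688 to 1905 and 2911 to 3159 by at least 2-fold, and 1913 to 2937 and 913 to 1724 for the interaction. The cause of these shifts was not tested. With the replicate number as a block 5144 genes were higher and 5365 lower, 1732 and 3200 by at least 2-fold. Same-numbered libraries of the 2 genotypes had r of 0.141, -0.041, 0.131 and 0.216, and differently numbered ones -0.164 to 0.155. Whether the number marks a shared batch was not tested. The block for replicate number within each genotype gave 3050 and 1686 interaction genes. With 4 libraries a group, 20% of simulated 1.5-fold changes were recovered, in a simulation that changed far fewer genes than differed here. That share need not hold for these data, and small differences that were not called are not shown to be absent.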

Other observations

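Gene order along the genome showed an uneven pattern among the tested genes with a mean log2 CPM of 1 or more. The median difference (AKVPSL minus AKVPL) of the genes on chromosome 5 was 0.57 over 883 tested genes, on chromosome 18 it was 0.50 over 367, on chromosome 12 it was 0.40 over 472 and on chromosome 15 it was 0.40 over 561, whereas chromosome 2 stood lowest at -0.21 over 1049 genes. Under epithelial scaling, which moves the median of all genes to -0.298, these medians were 0.27, 0.21, 0.11, 0.11 and -0.50 in the same order. On chromosome 5, 59.1% of these genes were higher in AKVPSL, and on chromosome 2, 21.4%. The share over all genes tested, without that limit on expression, was 29.2%. The GFP+ cells, from other libraries, gave medians of 0.54, 0.52, 0.37, 0.39 and -0.21 for these chromosomes in the same order. Of the 4 marker genes, Cenpa (2.08) and Pdgfra (-2.47) lie on chromosome 5, Fn1 on chromosome 1 and Trpm5 on chromosome 7. The part of this chromosome pattern in the results above was not tested.

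Gene families that were gathered after their values were seen also differed between the genotypes in GFP- cells. Of 25 Hox genes tested, which encode the positional code of the body axis, 14 were lower in AKVPSL and 5 higher (median -1.09). Potassium channel genes were 31 of 50 lower and 9 higher (median -1.30), serpin protease inhibitors 19 of 28 lower and 3 higher (median -1.26; 1 higher without AKVPL replicate 4, with library totals or under epithelial scaling), and regulators of G protein signalling 12 of 17 lower and 2 higher (median -0.97). Claudins, the strands of tight junctions, were 7 of 13 higher and 3 lower (median 0.66). Keratins had 10 of 26 members higher and 7 lower (median -0.23), and 6 and 8 under epithelial scaling. Over all genes tested the shares were 29.2% higher and 29.8% lower.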
